A study of Mus musculus with 28 samples.

Results

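The genes of the cytosolic ribosomal proteins were followed in liver nuclear RNA of mice given TCPOBOP or vehicle. Members were chosen by symbol, as all Rpl, Rps and Rplp genes other than the Rps6k kinases and pseudogenes, with at least 1 FPKM in any group of the 4 comparisons of TCPOBOP with vehicle. FPKM is fragments per kilobase, scaled to library size. The rule found 84 members of 24197 genes. Of these, 76 encode standard subunits of the ribosome, 46 in the large subunit with its stalk and 30 in the small subunit. The other 8 are the paralogs Rps27l, Rps4l, Rpl22l1, Rpl36al and Rpl7l1, the retrogenes Rpl37rt and Rps27rt, and Rps19bp1, whose protein binds Rps19 and is no subunit. The rule left out genes that encode subunits under other names, such as Rpsa, Fau and Gnb2l1.

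Every cell makes ribosomal proteins in near equal numbers, since each ribosome holds a single copy of most of them. In vertebrates their mRNAs start with a C followed by a run of pyrimidines, the TOP motif, through which mTOR and the RNA-binding protein Larp1 control their translation. Hepatocytes, which secrete most plasma proteins, are rich in ribosomes, and a growing liver makes more of them.

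TCPOBOP is a synthetic agonist of the nuclear receptor CAR (Nr1i3) and enlarges the mouse liver. All mice were CD-1, an outbred stock. At 2 weeks, each sex was studied in 3 vehicle mice and in 4 mice given 3 mg/kg TCPOBOP, aged 9 to 10 weeks, all on little corn oil (4 µl per gram of mouse, 10% DMSO). The high corn oil regimen (20 µl per gram, 2% DMSO) held 3 vehicle males and 3 males given TCPOBOP, first 3 mg/kg and then 1 mg/kg, all treated for 8 weeks and aged 15 to 16 weeks. The low corn oil regimen held 4 males of that age given TCPOBOP for 8 weeks, first 3 mg/kg and then 1.5 mg/kg. Its 4 vehicle mice were treated for 4 to 8 weeks, 2 of them aged 11 to 12 weeks and 2 aged 15 to 16 weeks. Each of the 28 libraries came from the nuclei of 1 liver and was selected for polyadenylated RNA.

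The authors' deposited table gives 1 pooled FPKM per gene and group, a signed fold change and an adjusted p from edgeR for each of 5 comparisons. It holds no values of single libraries, so no spread between mice can be shown and the depth is unknown. A gene was called at an adjusted p under 0.05. In bulk RNA, fewer cells of a type and less RNA per cell cannot be told apart. Hepatocyte markers were present in all groups, with Alb between 2433 and 11130 FPKM in the authors' deposited table.

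Ribosomal protein genes rose together in males given TCPOBOP for 8 weeks with a high volume of corn oil. There, 63 of 84 members (75.0%) were called higher and 0 lower in the authors' deposited table, against 4.08% of all 24197 genes called higher and 1.88% lower. Among genes of at least 1 FPKM, the level set for members, 7.32% were called higher. The median log2 fold change of the members was 0.83, a 1.78-fold rise, and the median of all genes of at least 1 FPKM was -0.05. By subunit, 36 of 46 large subunit genes and 24 of 30 small subunit genes were called higher in the authors' deposited table, with median log2 fold changes of 0.85 and 0.83. The standard subunits lay close together, with quartiles of their log2 fold changes at 0.75 and 0.91.

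**Figure D1:**
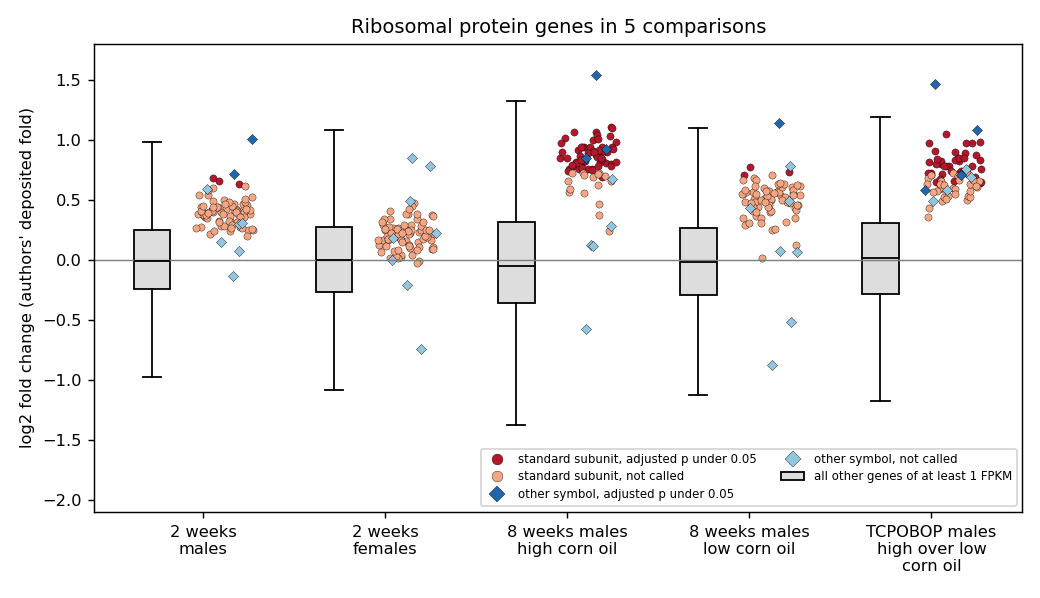
Log2 fold changes of the 84 members in the 5 comparisons, from the authors' deposited table. Each point is 1 gene, the grey box spans the quartiles of all other genes of at least 1 FPKM with whiskers to 1.5 times the box height, and outliers are not drawn. Most members lie above the median of the box in all 5 comparisons, with medians of 0.40, 0.22, 0.83, 0.50 and 0.71 from left to right.

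The largest rise was that of Rps27l, a paralog of Rps27 that p53 is known to induce. In the authors' deposited table Rps27l went from 22.3 FPKM with vehicle to 62.6 FPKM with TCPOBOP in that regimen, a log2 fold change of 1.54 (adjusted p = 3.64e-08, edgeR). Next came Rpl23, a large subunit protein, which rose from 35.0 FPKM to 72.4 FPKM per the authors' deposited table (log2 fold change 1.11, adjusted p = 0.000229). Rplp1, a protein of the stalk that recruits elongation factors, rose from 140 FPKM to 287 FPKM per the authors' deposited table (log2 fold change 1.10, adjusted p = 0.00406). All 3 were the highest of the 84 by fold change. Rpl11, which with Rpl5 and 5S rRNA binds and inhibits Mdm2 when ribosome assembly fails, rose from 55.4 FPKM to 112 FPKM per the authors' deposited table (log2 fold change 1.07, adjusted p = 0.000226). Its partner Rpl5 rose from 25.0 FPKM to 46.3 FPKM per the authors' deposited table (log2 fold change 0.94, adjusted p = 0.00216). Rps6, the small subunit protein that S6 kinase phosphorylates downstream of mTOR, rose from 41.1 FPKM to 70.3 FPKM per the authors' deposited table (log2 fold change 0.83, adjusted p = 0.00815). These values placed Rps6 near the median of the members.

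Of the 84 members, 21 were not called. Among the 16 standard subunits that were not called, Rpl10a, a protein of the L1 stalk, had the smallest log2 fold change, 0.24 (adjusted p = 0.932 in the authors' deposited table). Rpl12, at the base of the other stalk, stood at 78.0 and 96.5 FPKM in the authors' deposited table (log2 fold change 0.38, adjusted p = 0.681). Rpl3, near the peptidyl transferase centre, stood at 51.2 and 67.9 FPKM in the authors' deposited table (log2 fold change 0.47, adjusted p = 0.320). Several others missed it narrowly, such as Rpl9 with an adjusted p of 0.0554 and Rplp2 with 0.0576 in the authors' deposited table. Of the 8 members that are not standard subunits, Rps27l, Rpl36al and Rpl22l1 rose and 5 were not called.

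**Figure D2:**
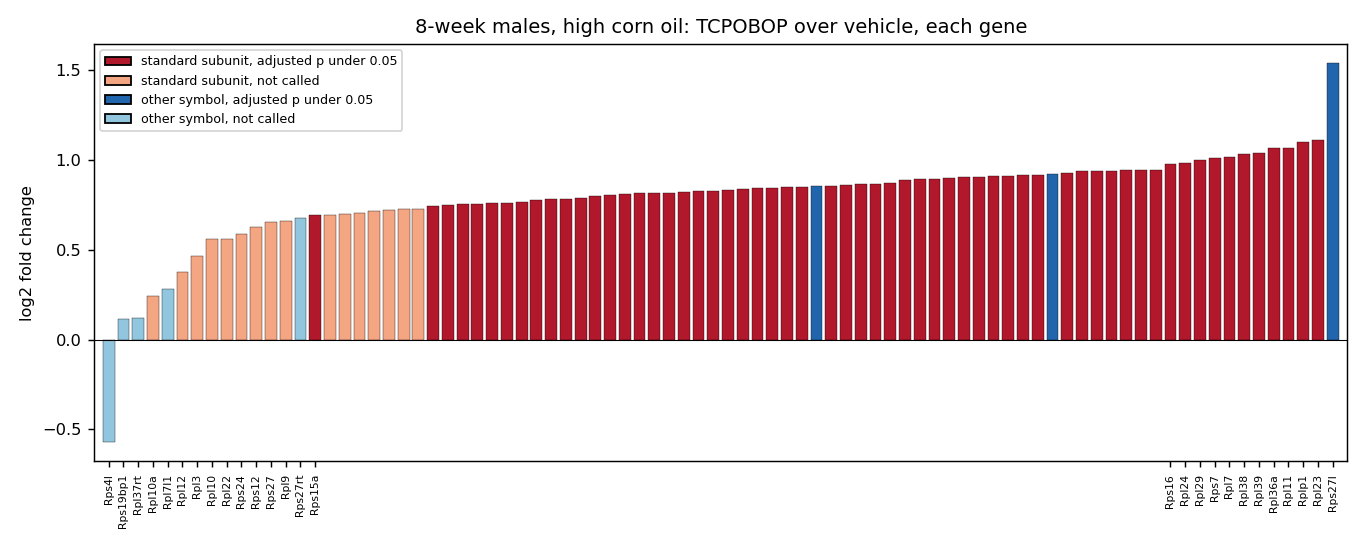
The 84 members ranked by log2 fold change in 8-week males of the high corn oil regimen, TCPOBOP over vehicle, from the authors' deposited table. Bars start at 0, the ends of the ranking carry gene names, and colours give the kind of gene and whether its adjusted p was under 0.05. Rps4l, at -0.57, is the lowest and Rps27l, at 1.54, the highest, and 63 bars are called.

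In the low corn oil regimen at 8 weeks, few members passed the test although nearly all had positive values. The authors' deposited table called 4 members (4.76%) higher and 0 lower, beside 3.72% of all genes called higher and 2.81% lower. The share called was thus near that of all genes and that of genes of at least 1 FPKM, 5.81%. The median log2 fold change of the members was 0.50, and 82 of 84 values were above 0. Rps27l again led, from 17.1 FPKM to 40.6 FPKM per the authors' deposited table (log2 fold change 1.14, adjusted p = 0.000339). Rpl36a, a large subunit protein, rose from 17.8 FPKM to 32.6 FPKM per the authors' deposited table (log2 fold change 0.77, adjusted p = 0.0169). Rpl27 and Rps3a1, of the large and the small subunit, rose by 0.74 (adjusted p = 0.0215) and 0.71 (adjusted p = 0.0400) on the log2 scale of the authors' deposited table. All 4 were also called in the high corn oil regimen, where they are 4 of the 63 called. Whether the response differed between the regimens was not tested, since that needs values of single libraries.

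At 2 weeks, the males had 5 called members (5.95%) and 0 called lower, beside 2.52% of all genes higher and 1.78% lower in the authors' deposited table. Among genes of at least 1 FPKM, 4.34% were called higher, near the share of the members. The median log2 fold change of the members was 0.40, and 83 of 84 values were above 0. Rps27l rose from 29.6 FPKM to 62.5 FPKM per the authors' deposited table (log2 fold change 1.01, adjusted p = 0.000128). Rpl36al, a near-identical copy of Rpl36a, rose from 36.3 FPKM to 62.5 FPKM per the authors' deposited table (log2 fold change 0.72, adjusted p = 0.0205). Rpl38, whose loss in mice alters translation of Hox mRNAs, rose by 0.68 on the log2 scale (adjusted p = 0.0326 in the authors' deposited table). Rplp2, the other acidic stalk protein, rose by 0.66 (adjusted p = 0.0308), and Rpl39, a small protein of the exit tunnel, by 0.64 (adjusted p = 0.0400) on the log2 scale of the authors' deposited table. Of these 5, all but Rplp2 were called in the 8-week males of the high corn oil regimen as well.

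In females at 2 weeks, 0 members were called in either direction by edgeR in the authors' deposited table, beside 3.45% of all genes higher and 3.18% lower. Among genes of at least 1 FPKM, 6.38% were called higher. Unadjusted p-values are not in the table. The smallest adjusted p was that of Rps27l, 0.0796, with 31.7 FPKM under vehicle and 55.3 FPKM under TCPOBOP in the authors' deposited table (log2 fold change 0.79). Its log2 fold change was second to that of Rps4l, 0.85, a paralog of Rps4x that stood at 1.21 and 2.19 FPKM in the authors' deposited table (adjusted p = 0.441). The median over the members was 0.22 on the log2 scale, with 79 of 84 values above 0. A difference between the sexes was not tested.

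Rps27l was first by fold change in the 3 male treatment comparisons and second in females. Its 4 TCPOBOP groups lay between 40.6 and 62.6 FPKM, above all 4 vehicle groups, which lay between 17.1 and 31.7 FPKM in the authors' deposited table. The parental gene Rps27, a small subunit protein, was not called in any of the 5 comparisons, and its log2 fold changes were 0.29, 0.22, 0.65 and 0.44 for the 4 treatment comparisons of the authors' deposited table. Among the p53 genes listed, Cdkn1a, the gene of p21, an inhibitor of the cell cycle, rose in males at 2 weeks (log2 fold change 0.86, adjusted p = 0.0357 in the authors' deposited table). Cdkn1a also rose at 8 weeks with high corn oil (1.54, adjusted p = 0.0236) and fell in females by 2.26 on the log2 scale (adjusted p = 0.00216 in the authors' deposited table). Bbc3, the apoptosis inducer Puma, rose in males at 2 weeks (log2 fold change 0.77, adjusted p = 0.0366 in the authors' deposited table). Mdm2 and Trp53 were called in none of the 5 comparisons. In females Rps27l, which was not called, and Cdkn1a had opposite signs. In the low corn oil regimen, where Rps27l was called, 0 of the 4 p53 genes listed were called. The part of p53 in these values was not tested.

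Of the other paralogs, Rpl36al and Rpl7l1 had positive values in all 5 comparisons, with Rpl36al called in 3 of them and Rpl7l1 only between the TCPOBOP regimens in the authors' deposited table. Rpl22l1, Rps4l and the retrogene Rpl37rt changed sign between comparisons. Rpl22l1, a paralog that Rpl22 is known to repress in mice, rose with TCPOBOP in the high corn oil regimen from 13.3 FPKM to 23.2 FPKM per the authors' deposited table (log2 fold change 0.85, adjusted p = 0.0272). In females its level was 23.0 FPKM under vehicle and 20.2 FPKM under TCPOBOP in the authors' deposited table (log2 fold change -0.21, adjusted p = 1). Rpl22 itself, at 6.88 to 12.8 FPKM over the 8 groups of the authors' deposited table, was called in no comparison. Rpl37rt, a retrogene with a near-identical parent Rpl37, had log2 fold changes of -0.13, -0.74, 0.12 and -0.87 in the 4 treatment comparisons of the authors' deposited table, none of them called. Rps4l had values of 0.59 and 0.85 at 2 weeks and of -0.57 and -0.52 at 8 weeks on the log2 scale of the authors' deposited table, and was not called either. Rpl37rt and Rps4l had the lowest levels of all members, with highest FPKM values of 3.37 and 3.49 in the authors' deposited table. Rps19bp1 was next but for Rps15a, with a highest value of 5.84 FPKM in the authors' deposited table. How reads were shared between Rpl37 and Rpl37rt, Rps27 and Rps27rt, Rpl36a and Rpl36al, or Rps4x and Rps4l is not given in the sources at hand, so these values are uncertain.

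Under the level limit lay 3 more symbols, all paralogs used in heart muscle or testis. Rpl3l reached 0.103 FPKM and Rpl39l 0.0189 FPKM, and Rpl10l was listed at 0 in all groups of the authors' deposited table. Of the subunit genes outside the symbol rule, Rpsa and Fau rose in the high corn oil regimen, by 0.81 (adjusted p = 0.0225) and 0.72 (adjusted p = 0.0343) on the log2 scale of the authors' deposited table. Gnb2l1, the scaffold protein of the small subunit also called Rack1, was not called (log2 fold change 0.45, adjusted p = 0.393 in the authors' deposited table). At 2 weeks and in the low corn oil regimen Rpsa, Fau and Gnb2l1 were not called by edgeR in the authors' deposited table.

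The start sites of the 7 members called in 2 or more of the 4 treatment comparisons are shown because these genes recurred. Each line gives 60 bases before and 30 bases from the annotated start, 5′ to 3′ on the strand of the gene, from RefSeq in build GRCm38.p6, with the longest run of C and T in capitals, or the first where runs are equally long. Rps27l has a second run as long as the one marked, and RefSeq lists 2 starts for it, of which the first is shown. These coordinates are not of the build used for counting.
Rpl27, chr11:101442185-101442274, plus strand: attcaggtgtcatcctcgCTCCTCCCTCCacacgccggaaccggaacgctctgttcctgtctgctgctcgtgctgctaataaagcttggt
Rpl36a, chrX:134585594-134585683, plus strand: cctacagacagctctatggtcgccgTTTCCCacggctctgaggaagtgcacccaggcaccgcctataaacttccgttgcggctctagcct
Rpl36al, chr12:69184038-69184127, minus strand: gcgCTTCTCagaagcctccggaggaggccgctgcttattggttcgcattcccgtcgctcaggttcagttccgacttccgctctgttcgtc
Rpl38, chr11:114668520-114668609, plus strand: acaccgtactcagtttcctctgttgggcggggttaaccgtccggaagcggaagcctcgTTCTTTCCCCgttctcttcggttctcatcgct
Rpl39, chrX:37085193-37085282, minus strand: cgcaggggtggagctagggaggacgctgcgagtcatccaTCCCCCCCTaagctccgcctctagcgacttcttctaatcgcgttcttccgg
Rps27l, chr9:66946026-66946115, plus strand: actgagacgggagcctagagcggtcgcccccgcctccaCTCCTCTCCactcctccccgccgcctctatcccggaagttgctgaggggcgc
Rps3a1, chr3:86142639-86142728, minus strand: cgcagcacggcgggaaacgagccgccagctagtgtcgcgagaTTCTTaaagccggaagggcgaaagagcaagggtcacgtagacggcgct

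Of the 7 sequences, that of Rpl38 had its longest run across the start itself, beginning 2 bases before it. The run of Rps3a1, of 5 bases, was the shortest of the 7, and that of Rpl27, of 11 bases, the longest. RefSeq start sequences matched 63 of the 84 members, 56 of them standard subunits. A run of at least 10 C or T within the window shown was found in 55.4% of the 56 and in 19.2% of 27025 genes. With the window set to 50 bases on each side, the shares were 75.0% and 20.6%. The letters CTTTC, which lie within such runs, occurred on the sense strand in 41.1% of the 56 and 13.1% of all genes in the window shown, and on either strand in 50.0% and 23.7%. The letters CCGGAAG, the core bound by ETS factors, occurred on either strand of the 300-base window in 41.1% of the 56 and 9.93% of all genes. The letters TATAAA occurred on either strand there in 10.7% of the 56 and 15.7% of all genes. A match describes these letters only.

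In levels, the standard subunits spanned a wide range. The highest means over the 8 groups were those of Rps2, of the small subunit, with 199 FPKM, Rplp1 with 171 FPKM, Rpl10 with 142 FPKM, Rpl41 with 130 FPKM and Rps18 with 111 FPKM, from the authors' deposited table. Rpl10, the large subunit protein that joins late in assembly, was called in none of the 5 comparisons. Rps2 was the highest standard subunit in 7 of the 8 groups, and Rplp1, at 287 FPKM, in TCPOBOP males of the high corn oil regimen in the authors' deposited table. Rps15a, of the small subunit, was the lowest standard subunit in every group, between 2.91 and 5.08 FPKM in the authors' deposited table. Its principal transcript in GENCODE has 5179 bases, the longest of the 76. The sources used here do not give the lengths behind the deposited FPKM values.

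**Figure D3:**
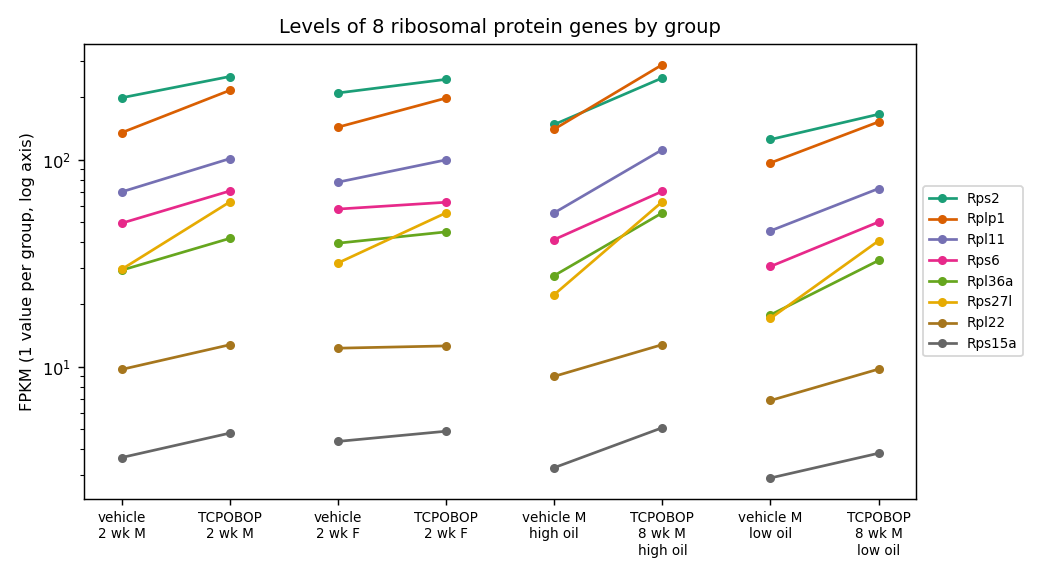
FPKM of 8 members in the 8 groups on a log axis, from the authors' deposited table, with a line from each vehicle group to its TCPOBOP group (M male, F female, wk weeks, oil corn oil). Each point is 1 pooled value without an error. The line of Rps27l rises most steeply in males, and Rps15a is lowest throughout, between 2.91 and 5.08 FPKM.

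The median FPKM over the 76 standard subunits was 50.0 in vehicle and 70.4 in TCPOBOP males at 2 weeks in the authors' deposited table. In females it was 59.0 and 70.0 FPKM. In the high corn oil regimen it was 47.4 and 77.9 FPKM, and in the low corn oil regimen 33.8 and 52.4 FPKM. Between vehicle females and males all 76 standard subunits were higher in females, by a median of 0.22 on the log2 scale of FPKM, where the median of all genes was 0.11 and that of other short genes of at least 20 FPKM 0.039. Against the 2-week vehicle males, all 76 were lower in vehicle males of the longer low corn oil regimen, with a median log2 FPKM ratio of -0.54, where other short genes had a median of -0.38 and all genes 0.03. Those groups differ in both weeks of vehicle and age, and may differ in library set, which cannot be told apart here. The table has no test between vehicle groups.

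The 76 genes made up between 1.87% and 3.10% of the summed FPKM of all genes. Their share was 2.20% in vehicle and 2.81% in TCPOBOP males at 2 weeks, and 2.75% and 2.84% in females. It was 2.22% and 3.10% in the high corn oil regimen, and 1.87% and 2.50% in the low corn oil regimen. The TCPOBOP group was higher in each of the 4 pairs, least so in females.

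**Figure D4:**
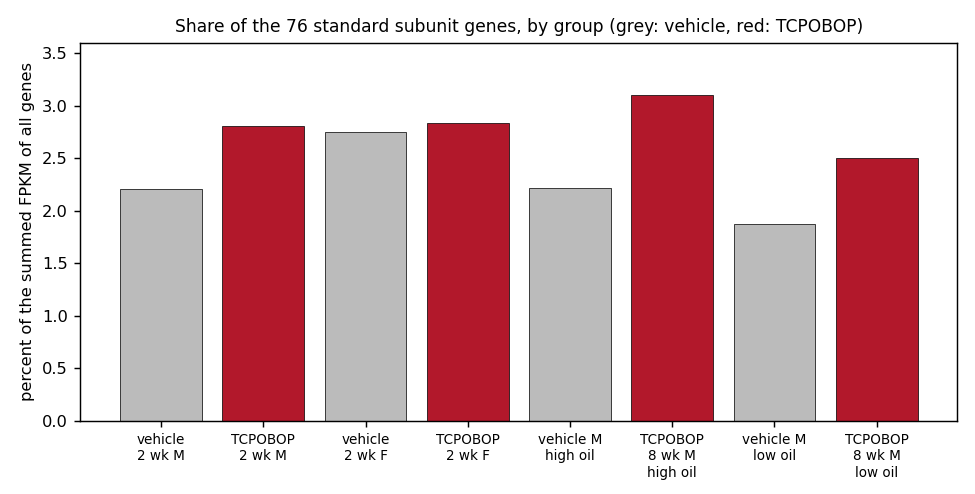
Share of the summed FPKM of all genes held by the 76 standard subunit genes in each of the 8 groups, computed from the authors' deposited table (M male, F female, wk weeks, oil corn oil). Bars start at 0 and are single values without an error. The share is highest, 3.10%, in TCPOBOP males of the high corn oil regimen and lowest, 1.87%, in vehicle males of the low corn oil regimen.

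The fifth deposited comparison set the 8-week TCPOBOP males of the high corn oil regimen over those of the low one, and it shares its libraries with both 8-week treatment comparisons. Of the members, 47 (56.0%) were called higher and 0 lower in the authors' deposited table, beside 3.6% of all genes higher and 3.81% lower. Among genes of at least 1 FPKM, 7.27% were called higher. The median log2 fold change of the members was 0.71 and all 84 values were above 0. Rpl37rt led with 1.34 FPKM in the low and 3.37 FPKM in the high regimen (log2 fold change 1.47, adjusted p = 0.000300 in the authors' deposited table). Rplp1 stood at 152 and 287 FPKM in the authors' deposited table (log2 fold change 1.05, adjusted p = 0.00111). Rpl41, the smallest ribosomal protein, stood at 115 and 205 FPKM in the authors' deposited table (log2 fold change 0.98, adjusted p = 0.000243). The lowest value was that of Rpl3, 0.36 (adjusted p = 0.465 in the authors' deposited table). The regimens also differ in later dose and DMSO content. The labels give all 8-week libraries of the high regimen one code and all of the low regimen another, so regimen and library set cannot be told apart. The vehicle groups of the regimens differed in the same direction, with all 76 standard subunits higher with high corn oil and a median log2 FPKM ratio of 0.42, untested. Other short genes of at least 20 FPKM had a median of 0.35 there, and all genes 0.04.

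Other genes with short transcripts also had median log2 fold changes above 0 in all 5 comparisons. The principal transcripts of the 76 standard subunits have a median of 843 bases in GENCODE, against 2518 bases for other genes of at least 5 FPKM. Among those other genes, the median log2 fold change in the high corn oil regimen went from 0.70 for transcripts up to 600 bases to -0.21 for those over 5000 bases. These 2 medians were 0.43 and -0.10 in males at 2 weeks, 0.31 and -0.10 in females, and 0.32 and -0.07 in the low corn oil regimen. Between the TCPOBOP regimens they were 0.74 and -0.23. In the high corn oil regimen, the 18 standard subunits of up to 600 bases had a median of 0.77, and other genes of that length 0.70. From 600 to 800 bases these medians were 0.86 and 0.53, and from 800 to 1000 bases 0.82 and 0.40. The 15 standard subunits of 1000 to 1500 bases had a median of 0.87, and other genes 0.28. From 1500 to 2000 bases the medians were 0.84, over only 5 standard subunits, and 0.12. From 2000 to 3000 bases they were 0.70, over only 3, and 0.01. In females at 2 weeks they were 0.23 and 0.31 up to 600 bases and 0.20 and 0.17 from 1000 to 1500 bases. The part of transcript length in the members' result was not tested.

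**Figure D5:**
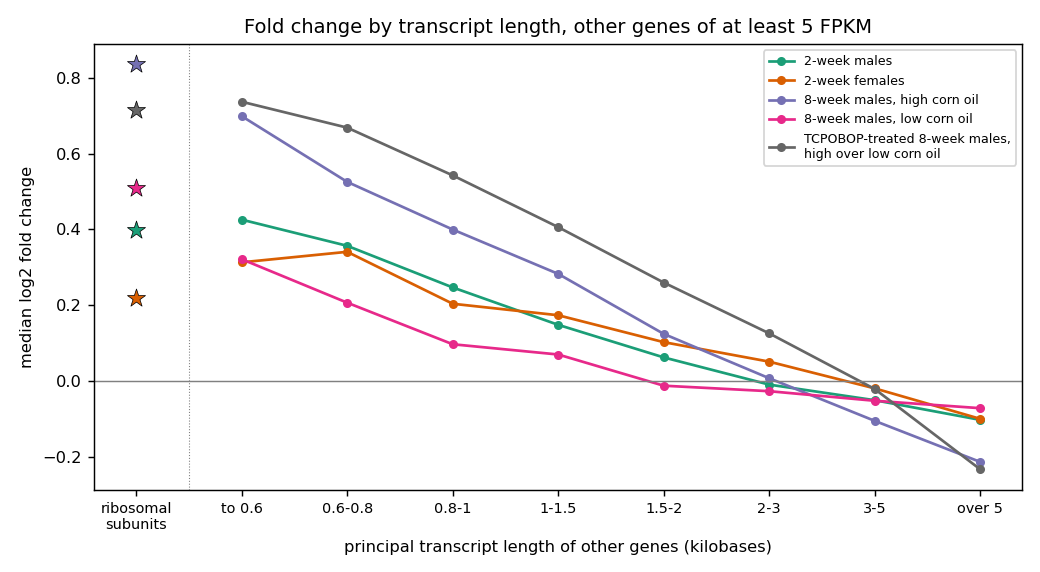
Median log2 fold change of other genes of at least 5 FPKM by principal transcript length, 1 line per comparison, with the median of the 76 standard subunits as a star at the left, computed from the authors' deposited folds. All 5 lines end lower at long transcripts than they begin at short ones, for example from 0.70 to -0.21 in the high corn oil regimen, where the star is at 0.84.

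Beside 193 other genes of at least 20 FPKM with a transcript of at most 1000 bases, the members had the higher share called in the high corn oil regimen and the lower share in the other 4 comparisons, differences that were not tested. In the high corn oil regimen 37.3% of these short genes were called higher, against 75.0% of the members, and their median log2 fold change was 0.66, against 0.83. In the low corn oil regimen 14.5% were called, against 4.76% of the members, with medians of 0.23 and 0.50. In males at 2 weeks 18.7% were called, against 5.95%, with medians of 0.37 and 0.40. In females 16.1% were called, against 0%, and the median of the short genes, 0.37, exceeded the 0.22 of the members. Between the TCPOBOP regimens 62.7% of the short genes were called, against 56.0% of the members, with medians of 0.74 and 0.71. Relative to the short genes, the members' median therefore turned negative in females and between the TCPOBOP regimens. Within the 76 standard subunits, length and fold change had a Pearson correlation between -0.18 and -0.05 over the 5 comparisons, across genes that share the same libraries. Of the 76, 51 have a transcript of at most 1000 bases, the limit set for the short genes.

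Other genes with TOP mRNAs, most of them translation factors, were called as well. Of 18 such genes, 6 (33.3%) rose in the high corn oil regimen and 0 fell, beside 4.08% of all genes called higher. Their median log2 fold change was 0.61. Tpt1, a TOP mRNA of high abundance, rose from 121 FPKM to 228 FPKM per the authors' deposited table (log2 fold change 0.96, adjusted p = 0.00120). Eef1a1, the elongation factor that delivers tRNA, rose from 313 FPKM to 574 FPKM per the authors' deposited table (log2 fold change 0.92, adjusted p = 0.00373). Eif3h and Pabpc1, an initiation factor subunit and the poly(A)-binding protein, rose by 0.77 (adjusted p = 0.0224) and 0.78 (adjusted p = 0.0297) on the log2 scale of the authors' deposited table. In the low corn oil regimen 2 of the 18 (11.1%) were called higher, beside 3.72% of all genes. At 2 weeks 0 were called in either sex by edgeR in the authors' deposited table. There 2.52% of all genes were called higher in males and 3.45% in females. Between the TCPOBOP regimens 4 of the 18 (22.2%) were called higher, beside 3.6% of all genes. The transcripts of this list have a median of 1940.5 bases.

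Of 77 mitochondrial ribosomal protein genes, whose products translate the mitochondrial genome, 3 (3.90%) were called higher with TCPOBOP in the high corn oil regimen. The shares called higher were 4.08% of all genes and 7.32% of genes of at least 1 FPKM, the level that 76 of the 77 reached. The median log2 fold change of the 77 was 0.34. The called genes were Mrpl14 (0.79, adjusted p = 0.0215), Mrpl51 (0.77, adjusted p = 0.0415) and Mrpl28 (0.73, adjusted p = 0.0423) on the log2 scale of the authors' deposited table. Mrpl14 and Mrpl28 were called in males at 2 weeks, Mrpl54 in females, and Mrpl4 fell in the low corn oil regimen by 0.75 on the log2 scale (adjusted p = 0.0166 in the authors' deposited table). Between the TCPOBOP regimens 19 of the 77 (24.7%) were called higher, beside 3.6% of all genes and 7.27% of genes of at least 1 FPKM. The difference between cytosolic and mitochondrial ribosomal proteins was not tested.

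The genes of ribosome assembly and of rRNA transcription had medians below 0 in the 4 treatment comparisons and above 0 between the TCPOBOP regimens. Of 39 such genes above 0 FPKM, Nhp2, a protein of the H/ACA snoRNPs, rose in the high corn oil regimen from 2.88 FPKM to 6.30 FPKM per the authors' deposited table (log2 fold change 1.19, adjusted p = 0.00275). Gtpbp4, a GTPase of large subunit assembly, fell by 1.01 on the log2 scale (adjusted p = 0.00555), and Rrp1b, a nucleolar protein, fell by 0.95 (adjusted p = 0.00813) in the authors' deposited table. Polr1b, a core subunit of RNA polymerase I, fell by 0.83 (adjusted p = 0.0483 in the authors' deposited table). The list's median log2 fold change there was -0.24, and it was -0.04 in males and -0.12 in females at 2 weeks and -0.12 in the low corn oil regimen. In the same order, the medians of all genes of at least 1 FPKM were -0.05, -0.007, 0.006 and -0.01. The transcripts of the list have a median length of 2702 bases. Between the TCPOBOP regimens the list's median log2 fold change was 0.34, with 34 of 39 values above 0 and 6 called higher in the authors' deposited table, among them Nop16, Nop58, Nop10 and Nhp2. The 6 are 15.4% of the list, beside 3.6% of all genes called higher. Of 9 snoRNA host genes and related RNAs without a protein product, 0 were called by edgeR in the high corn oil regimen of the authors' deposited table, and their median log2 fold change was -0.36. Their medians were also below 0 in the other 3 treatment comparisons, with Snhg7 lower in females and Snhg8 lower in the low corn oil regimen.

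Among 20 genes of mTOR and MYC control, Myc, a transcription factor that drives ribosome synthesis, rose in females (log2 fold change 1.53, adjusted p = 6.27e-05) and in the low corn oil regimen (2.15, adjusted p = 2.4e-11) in the authors' deposited table. In the high corn oil regimen Myc had 4.71 FPKM under vehicle and 5.17 FPKM under TCPOBOP in the authors' deposited table and was not called. Mycn fell in females (log2 fold change -2.27, adjusted p = 0.000253) and in the low corn oil regimen (-1.49, adjusted p = 0.000313) in the authors' deposited table. Rictor, a subunit of mTOR complex 2, fell in the high corn oil regimen by 0.80 on the log2 scale (adjusted p = 0.0322 in the authors' deposited table). The kinase gene Mtor and Larp1 were called in none of the 5 comparisons. The part of these genes in the members' result was not tested.

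Another list held 16 abundant short mRNAs of secreted and storage proteins of hepatocytes. At 2 weeks their median log2 fold change was -0.03 in males, with 6 of 16 values above 0, and 0.47 in females. It was 0.39 in the low corn oil regimen and 0.78 between the TCPOBOP regimens. In the high corn oil regimen 7 of the 16 were called higher, beside 4.08% of all genes, with a median log2 fold change of 0.74. Fth1, a ferritin subunit, rose from 87.3 FPKM to 217 FPKM per the authors' deposited table (log2 fold change 1.37, adjusted p = 8.71e-07). Apoc3, an apolipoprotein, rose from 567 FPKM to 1162 FPKM per the authors' deposited table (log2 fold change 1.09, adjusted p = 0.000696). Of the 5 nuclear RNA markers, Meg3 fell there and none rose. Malat1, a nuclear RNA, stood at 256 and 224 FPKM in the authors' deposited table and was not called. The summed FPKM of the 7 red blood cell markers was 92.5 and 124, with 0 called by edgeR in the authors' deposited table, and that of the 14 leukocyte markers was 89.1 and 99.2, with S100a8 called higher. The 11 Kupffer cell markers summed to 192 and 208 FPKM, with 0 called, and of 10 hepatocyte markers Apoa1 alone was called, higher. Over the 8 groups these sums ranged from 73.7 to 169 FPKM for red blood cells, from 48.6 to 141 FPKM for leukocytes and from 134 to 294 FPKM for Kupffer cells, and all 7, 14 and 11 markers were above 0 in some group. The nuclear RNA marker sum was 305 and 497 FPKM in males and 336 and 247 FPKM in females at 2 weeks, vehicle first. At 8 weeks it was 621 and 610 FPKM with high and 589 and 706 FPKM with low corn oil. Neat1 was called higher in males at 2 weeks, Meg3 lower in females and with low corn oil, and Kcnq1ot1 higher between the TCPOBOP regimens. At 2 weeks the red blood cell sum was higher with TCPOBOP in males, 91.3 and 169 FPKM, and lower in females, 151 and 110 FPKM. Between the TCPOBOP regimens the red blood cell markers had a median log2 fold change of 1.07, with Hba-a1, Hba-a2, Hbb-b1 and Hbb-bs called higher in the authors' deposited table, 4 of 7. Of all genes, 3.6% were called higher there. The leukocyte sum was higher with TCPOBOP in males at 2 weeks, 48.6 and 84.7 FPKM, in females, 63.0 and 141 FPKM, and with low corn oil, 73.2 and 118 FPKM. The Kupffer cell sum was higher in each of these 3 comparisons, 134 and 201 FPKM, 228 and 294 FPKM, and 183 and 230 FPKM, with C1qc called in males at 2 weeks. The hepatocyte sum was lower with TCPOBOP at 2 weeks, 16111 and 12426 FPKM in males and 17292 and 15357 FPKM in females. It was higher at 8 weeks, 10792 and 14473 FPKM with high and 6568 and 9441 FPKM with low corn oil. The 10 markers had median log2 fold changes of -0.23 in males and 0.11 in females at 2 weeks. At 8 weeks these medians were 0.22 with high and 0.04 with low corn oil. In that order, 1, 7, 8 and 6 of the 10 values were above 0. Alb was called lower in males at 2 weeks and Tat in females and with low corn oil, where Apoa1 was called higher. Between the TCPOBOP regimens 4 of the 10 hepatocyte markers were called higher, beside 3.6% of all genes. The part of these cells, of nuclear RNA and of cytoplasmic RNA in the members' result was not tested.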

How the data were processed

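The submitters' processing notes name TopHat2 2.0.13, build mm9, featureCounts 1.4.6-p5 and edgeR. Per the file headers, counting was over the gene body. The deposited FPKM values are 1 per group, pooled by the authors in a way that the sources used here do not state. The authors deposited each fold change as a signed score. The deposited p-value is from edgeR and was read as adjusted, because many values are tied at 1. The planned fits needed values of single libraries, which the table does not hold, so the deposited calls were used. Replicates are separate mice per the labels. The values of 2 genes are not reported here, though counts and medians include them.

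Signed folds were converted to log2. FPKM ratios between vehicle groups are untested. Transcript lengths are principal transcripts of GENCODE M21, matched by symbol for 82 of 84 members. Start sequences come from RefSeq. The members, the 14 lists and the alternatives were chosen with earlier results of these data known. Named members are those called, those with the 5 largest or 5 smallest folds of a comparison, the 5 highest or lowest in mean FPKM, the paralogs, and symbols near the level limit; list genes are those called, at most 4 per list and comparison. Rpl5, Rps6, Rps27, Rpl9, Gnb2l1, Malat1, Mdm2, Trp53, Mtor and Larp1 were named for their role or as uncalled examples after their values were seen. Python 3.11.15 with pandas 2.3.3 and numpy 2.4.6 was used, and the scripts were tested on simulated data.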

Additional observations from a re-analysis of the deposited data

How the results depend on the processing

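Counts of members and medians were recomputed under other thresholds, member sets and scalings. Of 120 comparisons of a count or median with an alternative, 101 changed by less than the tolerance, which was 1.5 times for counts and 0.1 on the log2 scale for medians. These 101 include counts that were 0 and stayed at 0. The members called lower numbered 0 in all 5 comparisons, as did those called higher in females. Such counts say nothing on how the other results depend on the processing. At an adjusted p under 0.01 the members called higher numbered 1 in males at 2 weeks, 39 with high corn oil, 1 with low corn oil and 20 between the TCPOBOP regimens. At an adjusted p under 0.1 they numbered 8 in males and 1 in females at 2 weeks and 15 with low corn oil, where 1 member was called lower. Values of single called members moved more, since of 351 such comparisons 79 changed by less than the tolerance, 257 by more, and 15 changed sign. With standard subunits alone, 3 were called in males at 2 weeks.

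For the comparison of the TCPOBOP regimens, the median log2 FPKM ratio was 0.56 with a pseudocount of 1 and 0.57 with 0.1. Further scalings were chosen after seeing the data. With FPKM rescaled to a common sum the medians were 0.051 in females, 0.50 with high corn oil and 0.29 between the TCPOBOP regimens. Relative to other short genes the medians were 0.024 in males and -0.15 in females at 2 weeks, 0.16 with high and 0.27 with low corn oil, and -0.026 between the TCPOBOP regimens. Rescaling to a common sum moved 108 of 117 values of single called members past the tolerance, and setting them relative to short genes moved or reversed all 117. In that last comparison called members that turned negative relative to the short genes included Rpl7l1 at -0.15, Rpl10a at -0.096, Rpl31 at -0.093, Rpl36 at -0.086, Rps15 at -0.086, Rpl37 at -0.076, Rps23 at -0.057, Rps10 at -0.045, Rps19bp1 at -0.029, Rpl6 at -0.023, Rpl5 at -0.018, Rps2 at -0.013, Rpl17 at -0.0070, Rpl12 at -0.0069 and Rps12 at -0.0058. The causes were not tested.

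No paired analysis was possible because the table holds pooled values of groups and none of single libraries. For the same reason, leaving out replicates was not run. The depth is unknown, so what it limits cannot be stated.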
